A study of Mus musculus with 12 samples.

Results

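The mitochondrial fatty acid oxidation genes of mouse inguinal white adipose tissue (iWAT) are described here across 4 groups of libraries. They are a list of 36 genes given by name. They were chosen by function and not by a measured value, although earlier results of these data were known at the time. The deposited normalized counts hold 35 of them among 14159 genes. *Eci2* is not listed in these values and is not analysed here. All 35 measured genes passed the filter of a mean of at least 10 normalized counts, as did 13404 genes of the whole series.

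Mitochondrial beta-oxidation shortens a fatty acid by an acetyl unit in each turn. The fatty acid is first activated to an acyl-CoA, carried into the matrix by the carnitine shuttle and then passed through dehydrogenation, hydration, a further oxidation and thiolysis, with separate enzymes for long, medium and short chains. Electrons from the dehydrogenases reach the respiratory chain through the electron transfer flavoprotein. In thermogenic fat this pathway burns the fatty acids released by lipolysis, and in white fat the same enzymes are present at lower levels.

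Sequencing covered the polyadenylated RNA of iWAT, taken whole, of Atf4WT and Atf4AKO mice on a C57BL/6 background. They were kept at room temperature (RT, 22 °C) or spent 24 h in the cold, at 5 °C. Each of the 4 groups held 3 biological replicates. Atf4AKO mice are *Atf4* flox/flox animals that carry *Adipoq*-Cre, a recombinase driven in adipocytes, and floxed littermates served as Atf4WT. The other cells of the tissue keep *Atf4* in both genotypes, and the age of the sequenced mice is not stated in the sources used here. The libraries held from 25719476 to 29105147 reads on listed genes. Normalized counts are reads divided by the size factor of the library. Differences were tested with limma on log2(normalized count + 1), and a gene passed when its p-value, adjusted by Benjamini-Hochberg over the 13404 genes tested, was under 0.05. In whole tissue, fewer cells of a type and less RNA per cell cannot be told apart.

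The labels were first checked on *Atf4* and *Ucp1*. *Atf4* stood at 4815 ± 791 normalized counts (SD, n = 3) in Atf4WT and 1568 ± 87.9 in Atf4AKO mice at RT, and at 6970.1 ± 1054 and 1182 ± 395 after cold exposure. *Ucp1*, the uncoupling protein of thermogenic adipocytes, rose from 443 ± 241 to 81029 ± 11913 in Atf4WT (adjusted p = 1.32e-05 from limma) and from 612 ± 426 to 97153 ± 20017 in Atf4AKO mice (adjusted p = 8.69e-06). Some libraries differed in their content of other cells. The summed counts of 8 listed skeletal muscle markers lay between 101 and 921 in 9 libraries and reached 4825 in Atf4AKO cold replicate 1, 45366 in Atf4WT cold replicate 0 and 136026 in Atf4WT RT replicate 2. These 3 libraries are called muscle-rich below. A lymphocyte score, the mean log2 value of 15 B and T cell markers, lay between 7.47 and 9.80 in cold-exposed Atf4WT and between 3.57 and 5.15 in cold-exposed Atf4AKO libraries. At RT it lay between 3.78 and 7.41 in Atf4WT and between 3.90 and 5.38 in Atf4AKO libraries. The summed counts of 6 fibroblast and progenitor markers lay between 109438 and 168203 in the RT libraries and between 28907 and 76624 in the cold-exposed ones. Where a call on a single gene ended without the muscle-rich libraries or with the lymphocyte score in the model, that value is given with the gene.

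Cold exposure raised a large part of the fatty acid oxidation genes in both genotypes, while other steps of the pathway did not pass in either genotype. In Atf4WT mice 16 of the 35 genes (45.7%) passed higher, against 17.0% of all tested genes, and 2 (5.71%) passed lower, against 14.9%. In Atf4AKO mice 19 (54.3%) passed higher, against 14.8% of all tested genes, and 1 (2.86%) passed lower, against 11.0%. The median log2 fold change of the 35 genes was 0.40 in Atf4WT and 0.48 in Atf4AKO mice, and that of all tested genes was 0.00 and −0.03. By the threshold of the study (more than 1.5-fold, with an unadjusted p-value below 0.05), 12 genes passed higher and 1 lower in Atf4WT, and 15 higher and 1 lower in Atf4AKO mice. All 3 cold-exposed libraries exceeded all 3 at RT for 21 of the 35 genes in Atf4WT and for 18 in Atf4AKO mice, against 23.9% and 21.7% of all tested genes. The 35 genes together held 1.15% ± 0.115 (SD, n = 3) of all normalized counts in Atf4WT at RT and 1.66% ± 0.0617 after cold exposure. In Atf4AKO libraries this share was 1.22% ± 0.120 at RT and 1.76% ± 0.148 after cold exposure.

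The genes that passed were largely shared between the genotypes. Their libraries are separate, but the calls rest on 1 estimate of the spread of each gene from all 12 libraries. Of the 16 genes higher in Atf4WT and the 19 higher in Atf4AKO mice, 15 were the same: *Acsl1*, *Acsl4*, *Cpt1b*, *Cpt2*, *Acadvl*, *Acadl*, *Acadm*, *Hadha*, *Hadhb*, *Acaa2*, *Decr1*, *Etfdh*, *Acot1*, *Acot2* and *Acot11*. *Etfb* passed higher in Atf4WT mice, and *Acsl3*, *Acad11*, *Eci1* and *Acot13* passed higher in Atf4AKO mice. That difference between genotypes was not past the threshold for any of these 5 genes (limma, adjusted p of at least 0.996). *Acad12* passed lower in both genotypes and *Cpt1a* in Atf4WT mice. For 13 genes neither genotype passed: *Acsl5*, *Acss1*, *Acads*, *Acad9*, *Acad10*, *Echs1*, *Hadh*, *Hsd17b10*, *Acat1*, *Etfa*, *Acot9*, *Pcca* and *Pccb*. When each of the 12 libraries was left out in turn, 10 genes passed higher every time in both genotypes, namely *Cpt1b*, *Acadvl*, *Acadl*, *Acadm*, *Hadha*, *Hadhb*, *Etfdh*, *Acot1*, *Acot2* and *Acot11*. The lowest counts of higher genes were 11 in Atf4WT, without Atf4WT RT replicate 2, and 11 in Atf4AKO mice, without Atf4AKO RT replicate 2 or without Atf4AKO cold replicate 1. Without Atf4AKO RT replicate 0 it was 12. Without the 3 libraries rich in muscle markers, a choice made after seeing the data, 11 genes passed higher in each genotype.

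**Figure D1:**
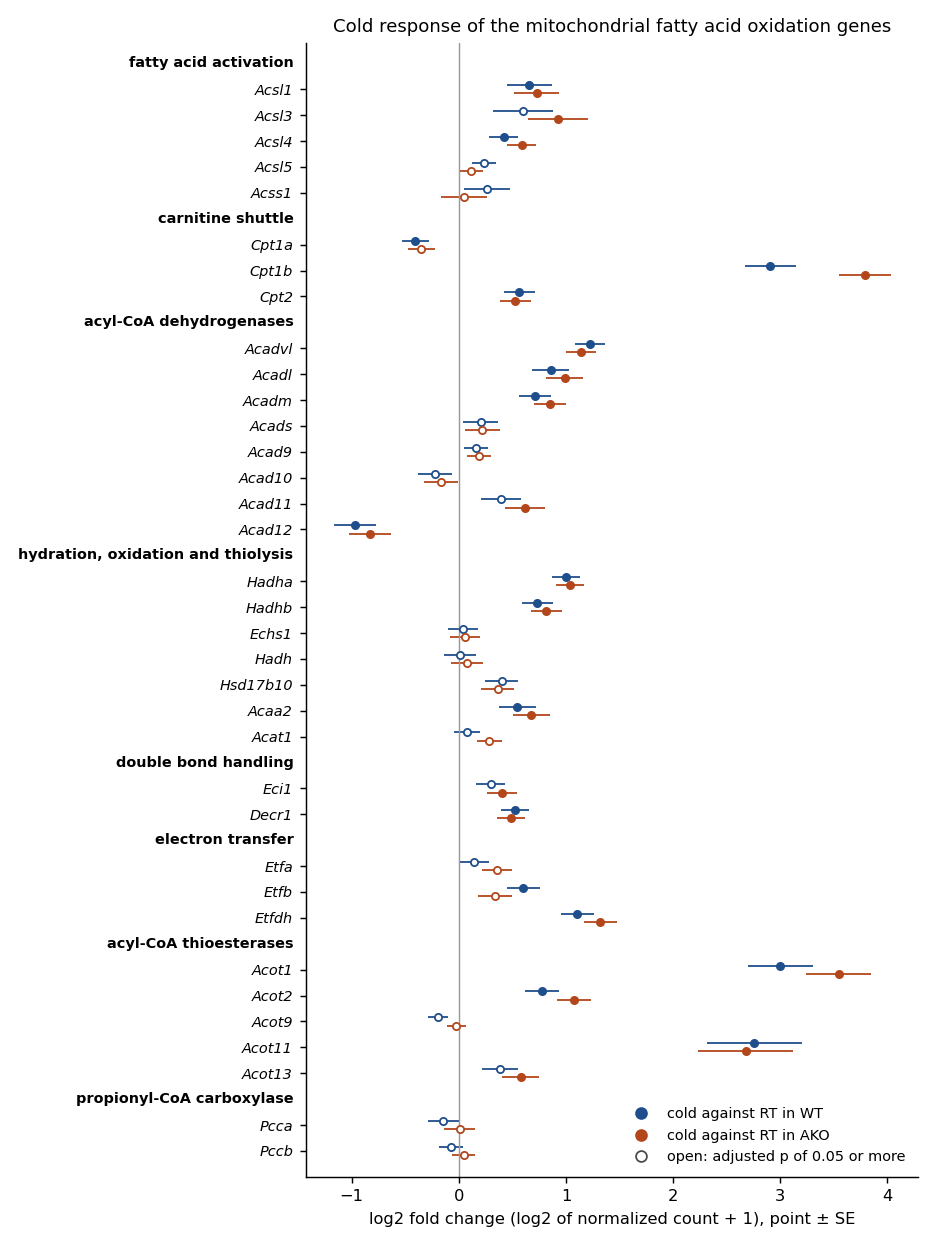
Log2 fold change with cold exposure (x axis, log2 of normalized count + 1, point ± SE) of the 35 genes, grouped by step of the pathway, in Atf4WT (blue) and Atf4AKO (orange) iWAT. Filled points passed an adjusted p-value of 0.05 and open points did not. Cpt1b, Acot1 and Acot11 lie furthest to the right, Acad12 and Cpt1a lie to the left of 0, and Echs1, Hadh, Pcca and Pccb lie close to 0.

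Fatty acids are activated by acyl-CoA synthetases. *Acsl1*, the main long-chain synthetase of adipocytes, lies on chromosome 8 from 46471037 to 46536051 (mm10). Its normalized counts were 69164, 88751 and 57465 in Atf4WT and 74835, 104306 and 70848 in Atf4AKO libraries at RT. After cold exposure they were 122010.3, 119320.4 and 95443 in Atf4WT and 144310.3, 134789 and 129154 in Atf4AKO libraries. Every cold-exposed library exceeded those at RT of its genotype, although Atf4WT cold replicate 2 was close to the highest RT library. The log2 fold change was 0.66 (SE 0.21, adjusted p = 0.0331) in Atf4WT and 0.73 (SE 0.21, adjusted p = 0.0263) in Atf4AKO mice. This call depended on single libraries. In Atf4WT the adjusted p was 0.0865 without RT replicate 0, 0.111 without RT replicate 2, 0.0911 without cold replicate 0 and 0.0982 without cold replicate 1. In Atf4AKO it was 0.0902 without RT replicate 0, 0.0821 without RT replicate 2, and 0.0650, 0.0660 and 0.0522 without cold replicates 0, 1 and 2. Without the muscle-rich libraries the log2 fold change of *Acsl1* was 0.45 (adjusted p = 0.249) in Atf4WT and 0.73 (adjusted p = 0.0747) in Atf4AKO mice, and neither passed.

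*Acsl4*, a synthetase that prefers arachidonic acid, rose by 0.42 in Atf4WT (adjusted p = 0.0353) and 0.59 in Atf4AKO mice (adjusted p = 0.00928) on the log2 scale. In Atf4WT this call was lost without any 1 of 5 of the 6 libraries, with adjusted p-values up to 0.126, without cold replicate 2. It was also lost without the muscle-rich libraries, where the log2 fold change was 0.40 (adjusted p = 0.139), and with the lymphocyte score, where it was 0.48 (adjusted p = 0.180). *Acsl3*, which activates fatty acids at lipid droplets and the endoplasmic reticulum, had a log2 fold change of 0.60 in Atf4WT (adjusted p = 0.124) and 0.93 in Atf4AKO mice (adjusted p = 0.0317). The Atf4AKO call of *Acsl3* was lost without RT replicate 0 or 2 or cold replicate 1 or 2, with adjusted p-values between 0.0580 and 0.118, and without the muscle-rich libraries, with a log2 fold change of 0.71 (adjusted p = 0.132). *Acsl5* had 2387 normalized counts in Atf4WT at RT and 2816 after cold exposure, and *Acss1*, the mitochondrial acetyl-CoA synthetase, had 739 and 905. Neither of the latter passed in either genotype (adjusted p of at least 0.138).

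The carnitine shuttle showed a change between isoforms of its first enzyme. Carnitine palmitoyltransferase 1 sits on the outer mitochondrial membrane, is inhibited by malonyl-CoA and controls the entry of long-chain acyl groups. It exists as the liver type *Cpt1a*, on chromosome 19 from 3322334 to 3385733, and the muscle type *Cpt1b*, on chromosome 15 from 89416405 to 89425863, which is also the type of brown fat. *Cpt1b* had 72.6, 120.3 and 116 normalized counts in the Atf4WT libraries at RT and 659, 771 and 865 after cold exposure. In Atf4AKO libraries it had 90.2, 85.6 and 55.7 at RT and 900.3, 1025 and 1282 after cold exposure. Every cold-exposed library lay far above every RT library. The log2 fold change was 2.91 (SE 0.24, adjusted p = 3.79e-05) in Atf4WT and 3.79 (SE 0.24, adjusted p = 8.69e-06) in Atf4AKO mice, that is 7.51-fold and 13.8-fold. Since *Cpt1b* is the muscle type, its counts were set beside the muscle markers. Atf4WT RT replicate 2, with the highest sum of muscle markers, had a *Cpt1b* count of 116, against 72.6 and 120 in replicates 0 and 1. The muscle-rich Atf4WT cold replicate 0 had 659, against 771 and 865. Atf4AKO cold replicate 1 had 1025, against 900.3 and 1282. Without the 3 libraries rich in muscle markers the log2 fold changes were 3.11 in Atf4WT and 3.81 in Atf4AKO mice. The part of muscle in the level of *Cpt1b* was not tested.

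*Cpt1a* moved the other way. It had 1439.7, 1436 and 1428 normalized counts in Atf4WT at RT and 1232, 971 and 1058 after cold exposure. The Atf4AKO libraries had 1706, 1228 and 1303 at RT and 1159.7, 1004 and 1128 after cold exposure. Cold-exposed libraries lay below the RT libraries in each genotype. The log2 fold change was −0.41 (SE 0.13, adjusted p = 0.0299) in Atf4WT and −0.35 (adjusted p = 0.0619) in Atf4AKO mice, so that only the former passed. The Atf4WT call was lost without RT replicate 0, 1 or 2 or cold replicate 1 or 2, with adjusted p-values between 0.0628 and 0.109. It was also lost with the lymphocyte score in the model, where the log2 fold change was −0.43 (adjusted p = 0.207). The score did not overlap between RT and cold-exposed Atf4WT libraries, so that score and cold exposure cannot be told apart in that fit. Fibroblast and progenitor markers also had lower sums after cold exposure, and their part in the level of *Cpt1a* was not tested.

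Per kilobase of transcript, *Cpt1b* made up 9.63% ± 2.29 (SD, n = 3) of the sum of both isoforms in Atf4WT at RT and 51.2% ± 5.89 after cold exposure. In Atf4AKO libraries this share was 7.57% ± 1.73 at RT and 59.0% ± 4.77 after cold exposure. The share thus moved from a minor to about an equal part of the transcripts of this enzyme, with no overlap between RT and cold-exposed libraries in either genotype. This share was chosen for display after its values were seen and was not tested. *Cpt2*, which reforms the acyl-CoA on the matrix side, rose by 0.56 in Atf4WT (adjusted p = 0.0145) and 0.53 in Atf4AKO mice (adjusted p = 0.0235). Its adjusted p was 0.0507 in Atf4WT without RT replicate 2. In Atf4AKO it was 0.0891, 0.0712 and 0.0908 without RT replicate 0, RT replicate 2 and cold replicate 1. Without the muscle-rich libraries the log2 fold change of *Cpt2* was 0.40 (adjusted p = 0.0763) in Atf4WT and 0.41 (adjusted p = 0.0696) in Atf4AKO mice, and neither passed.

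**Figure D2:**
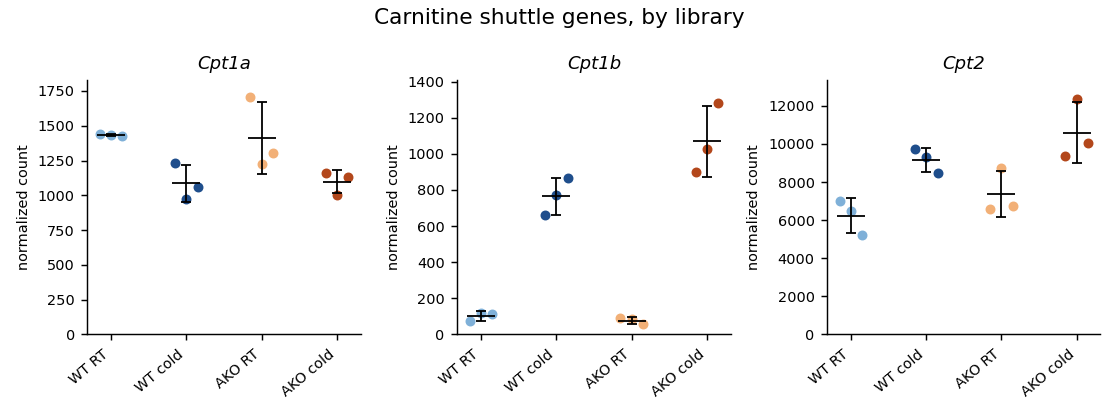
Normalized counts (y axis, from 0) of Cpt1a, Cpt1b and Cpt2 in each library, with points for the 3 libraries of a group and bars for mean ± SD. Cpt1a lies lower and Cpt1b and Cpt2 lie higher after cold exposure in both genotypes, with Cpt1b between 56 and 120 at RT and between 659 and 1282 after cold exposure.

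The acyl-CoA dehydrogenases catalyse the first step of each turn and differ in the chain length they accept. For 4 members, picked here by their chain length, the fitted responses to cold exposure stood in that order, although the differences between neighbours were not tested: *Acadvl* for very long chains rose most, *Acadl* for long chains and *Acadm* for medium chains rose less, and *Acads* for short chains did not pass. *Acadvl*, on chromosome 11 from 70010183 to 70015411, had 14547, 15459 and 12188 normalized counts in Atf4WT at RT and 34884, 32376 and 31147 after cold exposure. Atf4AKO mice gave 14687, 18445 and 15009.7 and 30306, 40834 and 35144. These groups were far apart, with a log2 fold change of 1.23 (SE 0.14, adjusted p = 0.000177) in Atf4WT and 1.14 (SE 0.14, adjusted p = 0.000343) in Atf4AKO mice.

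*Acadl*, on chromosome 1 from 66830839 to 66863277, had 14931, 17139.6 and 13662 normalized counts in Atf4WT at RT and 27137, 28811 and 26502 after cold exposure. The counts in Atf4AKO mice were 12808, 18846 and 15874 and 25627, 39552 and 29595. The groups did not overlap, Atf4AKO cold replicate 1 was the highest library, and the log2 fold change was 0.86 in Atf4WT (SE 0.17, adjusted p = 0.00426) and 0.99 in Atf4AKO mice (SE 0.17, adjusted p = 0.00236). *Acadm*, on chromosome 3 from 153922357 to 153944632, had 21781, 24947 and 17673 in Atf4WT at RT and 32642, 37348 and 34496 after cold exposure. In Atf4AKO libraries it had 20788, 25042 and 20397 and 34208, 45164 and 40539. Its groups did not overlap either, and its log2 fold change was 0.71 in Atf4WT (SE 0.15, adjusted p = 0.00527) and 0.85 in Atf4AKO mice (SE 0.15, adjusted p = 0.00245).

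*Acads* had 7071 ± 881 normalized counts (SD, n = 3) in Atf4WT at RT and 8197 ± 1434 after cold exposure, a log2 fold change of 0.20 (SE 0.16, adjusted p = 0.361). In Atf4AKO mice its log2 fold change was 0.22 (SE 0.16, adjusted p = 0.342), and the RT and cold-exposed libraries overlapped in both genotypes. A ratio within a library does not depend on the size factor. The ratio of *Acadvl* to *Acads* counts ranged from 1.93 to 2.10 in Atf4WT at RT and from 3.46 to 4.73 after cold exposure. In Atf4AKO libraries it ranged from 2.12 to 2.18 at RT and from 3.81 to 4.51 after cold exposure. The same ratio for *Acadm* ranged from 2.82 to 3.15 at RT and from 3.77 to 5.23 after cold exposure in Atf4WT, and from 2.88 to 3.08 and from 4.30 to 5.20 in Atf4AKO libraries. Each ratio was higher in every cold-exposed library than in any RT library of its genotype. These ratios were picked after the values were seen and were not tested.

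*Acad12* was the gene with the strongest fall. It lies next to *Acad10* on chromosome 5, from 121596775 to 121618938, and both encode acyl-CoA dehydrogenase family members whose roles are less defined. *Acad12* had 713, 725 and 789 normalized counts in Atf4WT at RT and 342, 452 and 347 after cold exposure. The Atf4AKO libraries had 569, 806 and 858 and 354, 543 and 361. Every cold-exposed library lay below the RT libraries of its genotype. The log2 fold change was −0.97 (SE 0.20, adjusted p = 0.00410) in Atf4WT and −0.83 (SE 0.20, adjusted p = 0.0106) in Atf4AKO mice. With the score for lymphocytes added the Atf4WT value was −0.93 and did not pass (adjusted p = 0.0881). That fit cannot tell the score from cold exposure, as stated for *Cpt1a*. Its neighbour *Acad10* had 697 counts at RT and 600.1 after cold exposure in Atf4WT mice (log2 fold change −0.22, adjusted p = 0.315). Reads with a unique position were counted for both, and a division of reads between these related neighbours was not tested. *Acad11*, which acts on long and very long chains, had a log2 fold change of 0.40 in Atf4WT (adjusted p = 0.128) and 0.62 in Atf4AKO mice (adjusted p = 0.0323). The latter call was lost without RT replicate 0 or 2 or cold replicate 1, with adjusted p-values between 0.0836 and 0.124, and without the muscle-rich libraries, with a log2 fold change of 0.42 (adjusted p = 0.129). Its fold changes lay below those of *Acadm* in both genotypes, outside the order by chain length. *Acad9*, listed here among the acyl-CoA dehydrogenases, is also an assembly factor of respiratory complex I. It had log2 fold changes of 0.16 in Atf4WT and 0.19 in Atf4AKO mice and did not pass (adjusted p of at least 0.241). These lay below those of *Acads* (0.20 and 0.22), and the difference was not tested. The order by chain length thus covers only the genes picked for it, and not *Acad9* or *Acad11*.

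The next steps are carried out on long chains by the mitochondrial trifunctional protein and on shorter chains by separate soluble enzymes. Both genes of the trifunctional protein rose, while the soluble hydratase *Echs1* and the soluble dehydrogenase *Hadh* did not pass. *Hadha*, its alpha subunit with hydratase and dehydrogenase activity, had 12715, 13384 and 10524 normalized counts in Atf4WT at RT and 22961, 25004 and 24859 after cold exposure. Atf4AKO mice gave 13321, 15318 and 11872 and 23939, 30247 and 29018. The groups were separated by a wide gap, with a log2 fold change of 1.00 (SE 0.13, adjusted p = 0.000433) in Atf4WT and 1.04 (SE 0.13, adjusted p = 0.000389) in Atf4AKO mice. *Hadhb*, the beta subunit with thiolase activity, rose from 15874 ± 2108 (SD, n = 3) to 26306 ± 2237 in Atf4WT and from 17689 ± 1981 to 31329 ± 5038 in Atf4AKO mice. On the log2 scale the rise was 0.73 (adjusted p = 0.00387) in the former and 0.82 (adjusted p = 0.00258) in the latter.

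*Hadha* and *Hadhb* are transcribed away from each other on chromosome 5, *Hadha* on the minus strand from 30118304 to 30155162 and *Hadhb* on the plus strand from 30155248 to 30184593 (GENCODE, mm10). Their promoter windows in RefSeq (GRCm38.p6), from 250 bases before to 50 after each start, share 228 bases. The 85 bases between both annotated genes are printed because these are the bases that lie before both starts of a pair of subunits that rose together. They are given on the plus strand, with the letters GGGCGG, the core of a GC box, in capitals. It occurs at 2 places, and 69.4% of the bases are G or C.
*Hadha* and *Hadhb*, intergenic bases, chr5:30155163-30155247: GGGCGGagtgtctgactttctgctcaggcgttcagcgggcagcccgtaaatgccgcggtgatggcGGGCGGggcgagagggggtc
The letters GGGCGG, on either strand, occur in 21 of the 29 measured members with a promoter window and in 60.1% of the windows of all tested genes, so that they are common in windows of this kind. TATAAA was found in 1 of the 29, *Acot9*, against 7.54% of the windows of tested genes. TCAAGGTCA, a site of estrogen-related receptors, and TGACGTCA, the cAMP response element, occurred in none of the 29 windows, against 0.242% and 2.83% of the windows of tested genes. TGATGNAA, a form of the ATF4 composite element, occurred in 1 of the 29, *Echs1*, against 2.30%. Windows of *Cpt1b*, *Acad9*, *Acaa2*, *Acat1*, *Decr1* and *Acot13* were not used here.

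*Echs1*, the short-chain enoyl-CoA hydratase, had 14387 ± 1722 normalized counts (SD, n = 3) in Atf4WT at RT and 14796 ± 1513 after cold exposure, and 14972 ± 2231 and 15540.3 ± 1977 in Atf4AKO mice. *Hadh*, the medium- and short-chain 3-hydroxyacyl-CoA dehydrogenase, had 19395 ± 3288 and 19450.4 ± 1439 in Atf4WT, and 20319 ± 3475 and 21252 ± 2087 in Atf4AKO mice. The log2 fold changes were 0.04 (SE 0.14) and 0.06 for *Echs1* and 0.01 (SE 0.15) and 0.07 for *Hadh*, and the lowest adjusted p among them was 0.746. The ratio of *Hadha* to *Hadh* counts ranged from 0.583 to 0.679 at RT and from 1.16 to 1.39 after cold exposure in Atf4WT, and from 0.632 to 0.696 and from 1.24 to 1.39 in Atf4AKO libraries. The ratio was higher in every cold-exposed library than in any at RT, and this comparison was chosen after the values were seen.

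The thiolases and *Hsd17b10* gave smaller values. *Acaa2*, the medium-chain 3-ketoacyl-CoA thiolase, had 8112, 10378 and 7361 normalized counts in Atf4WT at RT and 12117, 14475 and 10939 after cold exposure. The counts in Atf4AKO mice were 8391, 9435 and 7144 and 11126, 16095 and 12894. The groups did not overlap, and the log2 fold change was 0.54 (SE 0.17, adjusted p = 0.0330) in Atf4WT and 0.68 (SE 0.17, adjusted p = 0.0156) in Atf4AKO mice. In Atf4WT the call was lost without RT replicate 0 or 2 or cold replicate 0 or 1 (adjusted p from 0.0607 to 0.119). In Atf4AKO it was lost without RT replicate 2 (0.0549) or cold replicate 1 (0.0619). Without the muscle-rich libraries the log2 fold change of *Acaa2* was 0.46 (adjusted p = 0.107) in Atf4WT and 0.53 (adjusted p = 0.0673) in Atf4AKO mice, and neither passed. *Acat1*, which splits acetoacetyl-CoA, had log2 fold changes of 0.08 and 0.29 and did not pass (adjusted p = 0.652 and 0.104). *Hsd17b10*, a dehydrogenase of branched and short chains that is also a subunit of mitochondrial ribonuclease P, had 0.40 and 0.36 (adjusted p = 0.0668 and 0.104).

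**Figure D3:**
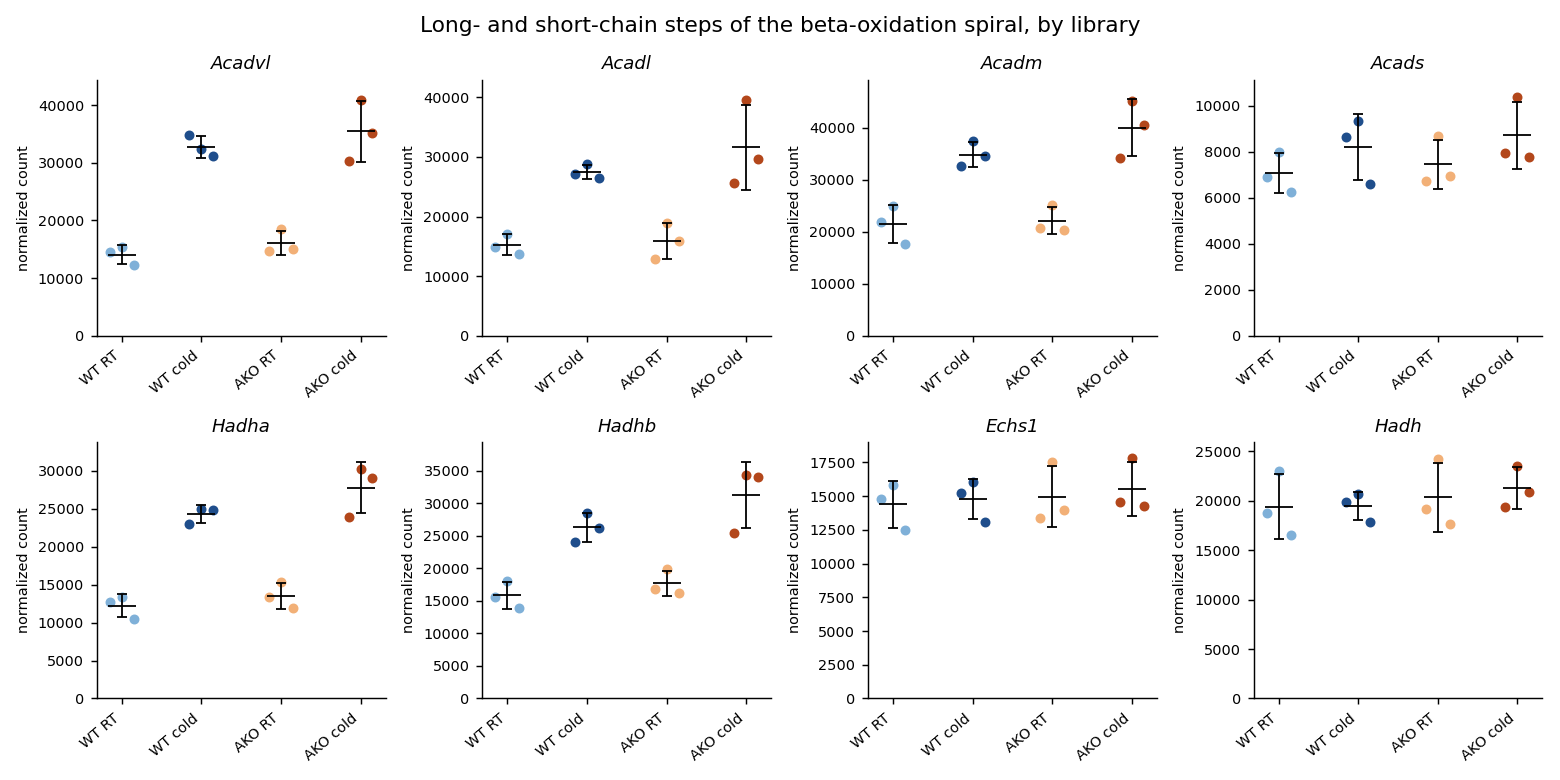
Normalized counts (y axes, from 0) of 4 acyl-CoA dehydrogenases ordered by chain length and of 4 genes of the following steps in each library, with points for the 3 libraries of a group and bars for mean ± SD. Acadvl, Acadl, Acadm, Hadha and Hadhb lie higher in every cold-exposed library, while the RT and cold-exposed libraries overlap for Acads, Echs1 and Hadh.

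Unsaturated fatty acids need auxiliary enzymes. *Decr1*, the mitochondrial 2,4-dienoyl-CoA reductase, had 11095, 12392 and 9832 normalized counts in Atf4WT at RT and 16665, 17156 and 14062 after cold exposure. In Atf4AKO libraries it had 11004, 13683 and 11328 and 14684, 18646 and 17029. Cold-exposed libraries lay above RT libraries in each genotype, with a log2 fold change of 0.52 (SE 0.13, adjusted p = 0.0119) in Atf4WT and 0.48 (adjusted p = 0.0208) in Atf4AKO mice. The Atf4AKO call was lost without RT replicate 0 or 2 or cold replicate 1 or 2 (adjusted p from 0.0558 to 0.0805). Without the muscle-rich libraries the log2 fold change of *Decr1* was 0.41 (adjusted p = 0.0873) in Atf4WT and 0.40 (adjusted p = 0.0879) in Atf4AKO mice, and neither passed. *Eci1*, an enoyl-CoA isomerase, had log2 fold changes of 0.30 in Atf4WT (adjusted p = 0.115) and 0.40 in Atf4AKO mice, where the adjusted p of 0.0495 was at the threshold. That call was lost without 9 of the 12 libraries, where its adjusted p reached 0.178 without Atf4AKO cold replicate 1, and without the muscle-rich libraries the log2 fold change was 0.29 (adjusted p = 0.168).

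Electrons from the acyl-CoA dehydrogenases pass to the flavoprotein made of *Etfa* and *Etfb* and from it, through *Etfdh* in the inner membrane, to ubiquinone. *Etfdh* had 5396, 5769 and 4442 normalized counts in Atf4WT at RT and 10479, 10638 and 12366 after cold exposure. The Atf4AKO libraries had 5183, 6029.9 and 4644 and 10639, 15733 and 13495. Each cold-exposed library held more counts than any RT library, and the log2 fold change was 1.11 (SE 0.15, adjusted p = 0.000607) in Atf4WT and 1.32 (SE 0.15, adjusted p = 0.000269) in Atf4AKO mice. *Etfb* rose by 0.60 in Atf4WT (adjusted p = 0.0145) and had a log2 fold change of 0.34 in Atf4AKO mice (adjusted p = 0.140). Its Atf4WT call was lost without RT replicate 2 (0.0512) or cold replicate 1 (0.0522), and without the muscle-rich libraries, with a log2 fold change of 0.42 (adjusted p = 0.0810). *Etfa* had a log2 fold change of 0.14 in Atf4WT (adjusted p = 0.458) and 0.36 in Atf4AKO mice (adjusted p = 0.0789). The ratio of *Etfdh* to *Etfa* counts, picked after its values were seen, ranged from 0.379 to 0.409 at RT and from 0.707 to 0.852 after cold exposure in Atf4WT, and from 0.364 to 0.428 and from 0.724 to 0.841 in Atf4AKO libraries.

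The acyl-CoA thioesterases, which release the fatty acid from CoA and so run against activation, held 2 of the 3 highest fold changes. *Acot1*, the cytosolic long-chain thioesterase, had 22.1, 25.0 and 16.7 normalized counts in Atf4WT at RT and 219.8, 164 and 149 after cold exposure. Atf4AKO mice gave 16.7, 22.9 and 13.9 and 220.0, 307 and 146. Counts were low at RT and several times higher in each cold-exposed library, a rise of 8.01-fold in Atf4WT (adjusted p = 0.000103) and 11.7-fold in Atf4AKO mice (adjusted p = 4.71e-05), with an SE of 0.30 on the log2 scale. *Acot11*, known as the brown-fat-inducible thioesterase, had 333, 402 and 183 in Atf4WT at RT and 1911, 1899 and 2106 after cold exposure. The counts in Atf4AKO mice were 653, 339 and 148 and 1604, 2388 and 2257. Its RT libraries were spread widely, with Atf4AKO RT replicate 0 the highest, and still lay below the cold-exposed ones. The log2 fold change was 2.76 (SE 0.44, adjusted p = 0.00119) in Atf4WT and 2.68 (SE 0.44, adjusted p = 0.00172) in Atf4AKO mice.

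*Acot2*, the matrix counterpart of *Acot1*, rose from 479 ± 56.3 (SD, n = 3) to 829 ± 169 normalized counts in Atf4WT and from 453 ± 53.7 to 953 ± 109 in Atf4AKO mice. On the log2 scale the rise was 0.78 (adjusted p = 0.00445) in the former and 1.07 (adjusted p = 0.000988) in the latter. *Acot1* and *Acot2* are near-identical copies, and since the authors counted uniquely mapped reads, the division of reads between them is uncertain. The ratio of *Acot1* to *Acot2* counts ranged from 0.0362 to 0.0508 at RT and from 0.163 to 0.269 after cold exposure in Atf4WT, and from 0.0355 to 0.0462 and from 0.175 to 0.293 in Atf4AKO libraries. *Acot2* and *Acot1* follow each other on chromosome 12, from 83987861 to 83993873 and from 84009490 to 84018371, with 15616 bases between them. The bases before each gene in its RefSeq promoter window (GRCm38.p6, plus strand) are printed to show how far they differ between the copies, with the letters CCAAT, or ATTGG on the other strand, in capitals.
*Acot1*, chr12:84009252-84009489: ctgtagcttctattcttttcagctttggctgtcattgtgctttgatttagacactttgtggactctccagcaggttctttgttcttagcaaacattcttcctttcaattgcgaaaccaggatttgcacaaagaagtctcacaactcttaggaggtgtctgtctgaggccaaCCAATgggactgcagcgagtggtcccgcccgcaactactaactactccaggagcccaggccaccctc
*Acot2*, chr12:83987611-83987860: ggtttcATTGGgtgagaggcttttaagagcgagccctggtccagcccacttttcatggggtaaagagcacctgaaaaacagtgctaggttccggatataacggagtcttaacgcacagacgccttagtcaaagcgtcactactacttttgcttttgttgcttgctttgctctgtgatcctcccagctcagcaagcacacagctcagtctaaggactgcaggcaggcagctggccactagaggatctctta
The longest run of bases shared by both stretches was 9, and each held the CCAAT letters at 1 place, at position 172 from the start of the *Acot1* stretch and position 7 of the *Acot2* stretch. CCAAT occurs in 15 of the 29 members with a window and in 37.4% of the windows of tested genes.

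The remaining thioesterases and propionyl-CoA carboxylase gave smaller values. *Acot13*, which is associated with mitochondria, had log2 fold changes of 0.38 in Atf4WT (adjusted p = 0.108) and 0.58 in Atf4AKO mice (adjusted p = 0.0295), and the latter was lost without RT replicate 0 or 2 or cold replicate 1 or 2 (adjusted p from 0.0685 to 0.0999) and without the muscle-rich libraries, with a log2 fold change of 0.38 (adjusted p = 0.127). *Acot9*, a mitochondrial thioesterase, had −0.19 and −0.02 and did not pass (adjusted p = 0.122 and 0.879). *Pcca* and *Pccb*, the subunits of propionyl-CoA carboxylase, handle the end product of odd chains and of several amino acids. *Pcca* had 5819, 5837 and 4412 normalized counts in Atf4WT at RT and 4742, 4493 and 5224 after cold exposure. In Atf4AKO libraries it had 5380.2, 6548 and 4744 and 4812, 5729.9 and 6167. The groups overlapped, and the log2 fold changes were −0.14 and 0.01 for *Pcca* and −0.07 and 0.04 for *Pccb* (adjusted p of at least 0.481).

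**Figure D4:**
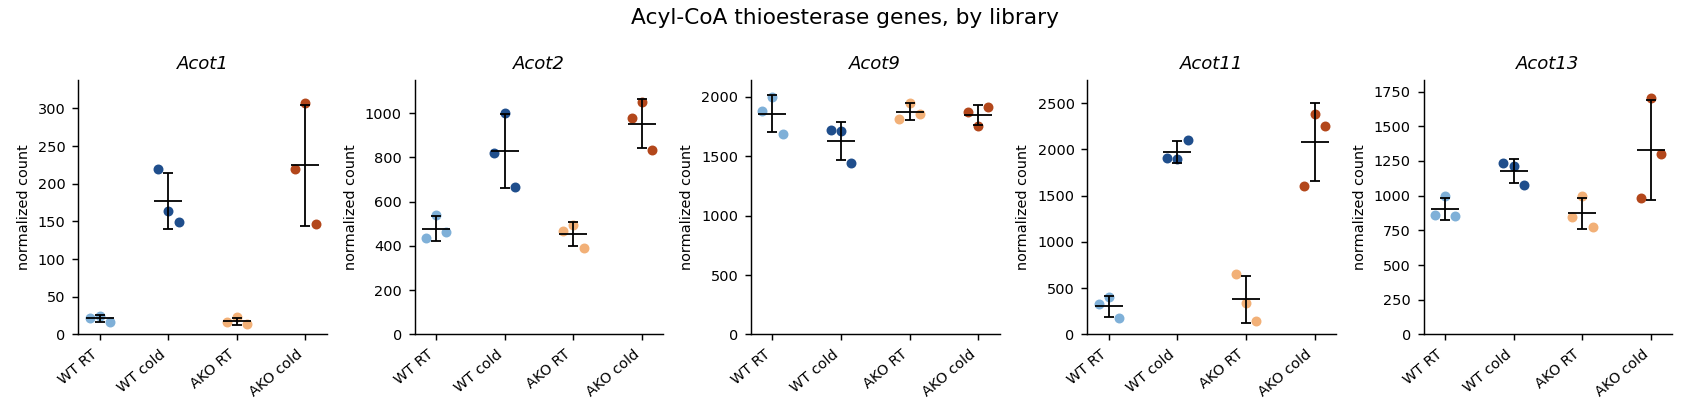
Normalized counts (y axes, from 0) of the 5 acyl-CoA thioesterase genes in each library, with points for the 3 libraries of a group and bars for mean ± SD. Acot1 lies between 13.9 and 25 at RT and between 146 and 307 after cold exposure, Acot11 and Acot2 are also higher in every cold-exposed library, and Acot9 overlaps between the conditions.

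The genes spanned a wide range of levels. Per kilobase of transcript, for the 33 genes with a matched transcript length, *Acsl1* was first in each of the 4 groups, with 18423 normalized counts per kilobase in Atf4WT at RT and 28806 after cold exposure. *Etfb* was second in each group, with 15536 and 23627. At RT in Atf4WT they were followed by *Hadh* (10841), *Acadm* (10487) and *Etfa* (9592), and after cold exposure by *Acadm* (17014), *Acadvl* (15130.2) and *Acadl* (14344). Neighbours in this order, such as *Acadm* and *Hadh* at RT, lay within 1 SD of each other. *Acot1* was last in each group, with 9.35 at RT and 78.1 after cold exposure in Atf4WT, so that the genes with the highest fold changes, *Cpt1b* and *Acot1*, were among those with the lowest levels at RT.

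The comparison of genotypes asked whether loss of *Atf4* in adipocytes changed this pathway. No gene passed after cold exposure, against 0.0298% of all tested genes, nor at RT, against 0.00746%. With the threshold of the study, also none passed after cold exposure (6.40% of all tested genes) or at RT (0.463%), and no gene of the 35 had an unadjusted p-value under 0.05 in limma in either comparison. The counts with edgeR and DESeq2 on the recovered reads were likewise 0 (adjusted p). After cold exposure the log2 fold changes of Atf4AKO against Atf4WT ranged from −0.10 to 0.48, with SEs between 0.09 and 0.44 and a lowest adjusted p of 0.454, that of *Acot9* (log2 fold change 0.19, SE 0.09). At RT they ranged from −0.41 to 0.24. With SEs of this size, small differences between the genotypes could not have been detected.

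After cold exposure 32 of the 35 genes had a fold change above 0, as did 7955 of the 13404 tested genes. The median was 0.18 on the log2 scale, against 0.05 for all tested genes. Neighbouring lists, described below, also lay mostly above 0. These were 14 of 14 transcriptional regulators, 18 of 20 other mitochondrial acyl-CoA enzymes and 16 of 19 peroxisomal genes. For malonyl-CoA control it was 9 of 10, for carnitine supply and transport 6 of 7 and for ketone body metabolism 4 of 6. The 3 Atf4AKO libraries lay above the 3 Atf4WT libraries for 3 of the 35 genes, *Acsl1*, *Cpt1b* and *Acot9*, against 8.68% of all tested genes. Cold-exposed Atf4WT libraries held more lymphocyte RNA, as the scores above show. All 9 white adipocyte markers and all 8 thermogenic adipocyte markers also had a fold change above 0 (median 0.23 in each list). Above 0 were also 3 of 4 endothelial, 2 of 6 fibroblast and progenitor and 1 of 5 macrophage markers. Once the lymphocyte score entered the model, 8 of the 35 were above 0 and the median was −0.23. Without Atf4AKO cold replicate 1, 24 were above 0 and the median was 0.06. The direction between genotypes thus changed with the score in the model. After cold exposure the score did not overlap between the genotypes, so that genotype and score cannot be told apart in this model. The part of lymphocytes in the direction was not tested further. At RT 24 of the 35 genes were above 0 with a median of 0.05, against 6942 of the 13404 tested genes with a median of 0.01. Of the 35, 15 were above 0 without Atf4WT RT replicate 2 and 13 without Atf4AKO RT replicate 1.

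The cold responses of the genotypes were compared through their difference, the interaction. No gene passed in limma, against 0% of all tested genes, nor in edgeR or DESeq2, and 1 had an unadjusted p-value under 0.05. This was *Cpt1b*, whose cold response was higher by 0.88 on the log2 scale in Atf4AKO mice (SE 0.34, unadjusted p = 0.0237, adjusted p = 0.586), and which alone passed the threshold of the study, against 4.63% of all tested genes. Its log2 fold change of Atf4AKO against Atf4WT mice was −0.41 at RT (adjusted p = 1.00) and 0.48 after cold exposure (adjusted p = 0.478). The median difference of the 35 genes was 0.10, against 0.03 for all tested genes. Above 0 were 27 of the 35 and 7579 of the 13404 tested genes. With the lymphocyte score as a covariate the median of the 35 was −0.23 with 7 above 0, under the limit of that model given above. Without Atf4AKO cold replicate 1 it was 0.00 with 17 above 0.

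**Figure D5:**
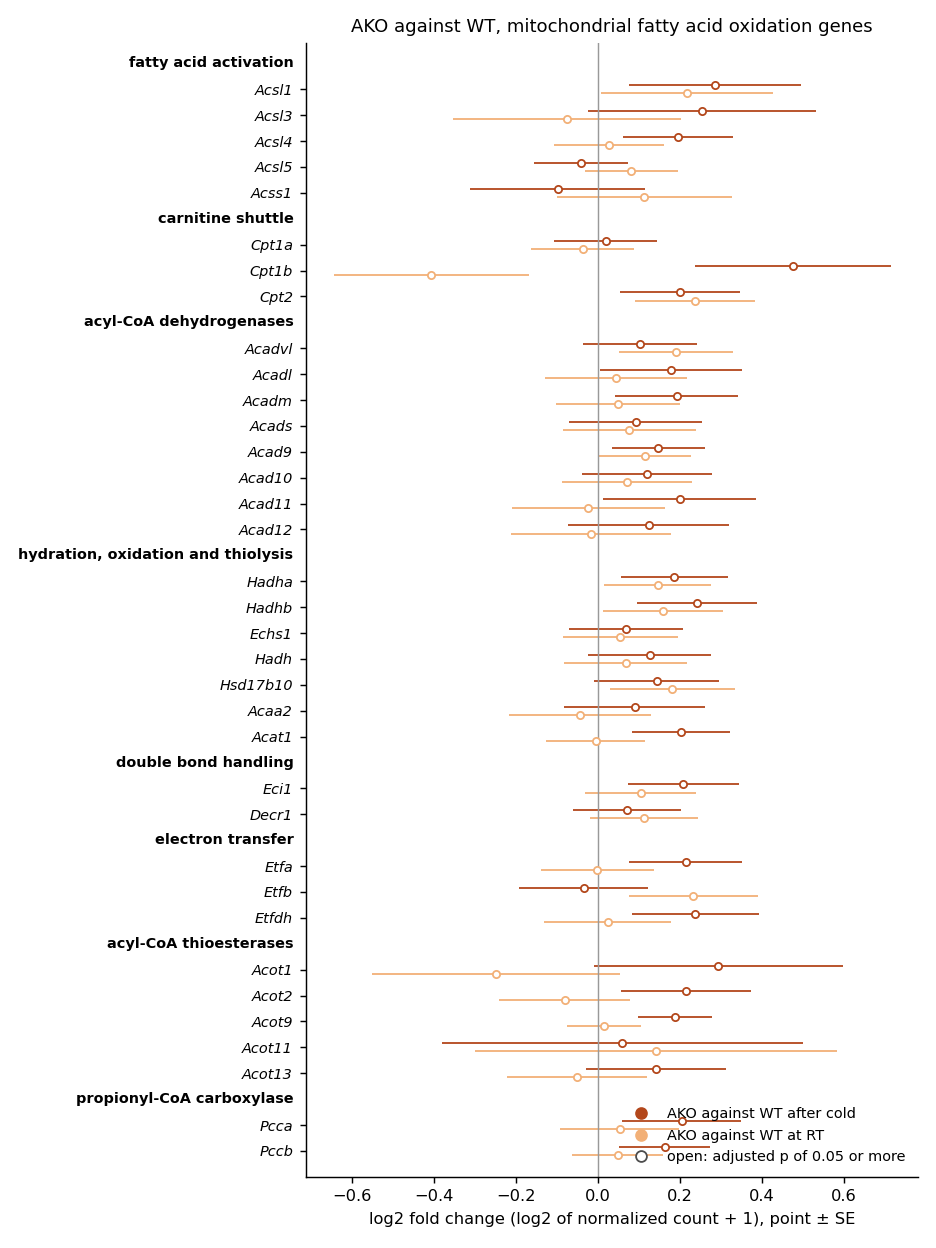
Log2 fold change of Atf4AKO against Atf4WT iWAT (x axis, log2 of normalized count + 1, point ± SE) of the 35 genes after cold exposure (dark) and at RT (light). All points are open because none passed an adjusted p-value of 0.05, and after cold exposure 32 of the 35 lie to the right of 0.

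Genes around the pathway were taken from lists of neighbouring functions, whose counts stand against 17.0% higher and 14.9% lower of all tested genes in Atf4WT and 14.8% and 11.0% in Atf4AKO mice. No gene of these lists passed in the difference of cold responses. Of 7 measured genes of carnitine supply and acylcarnitine transport, 2 passed higher (28.6%) and 2 lower (28.6%) with cold exposure in Atf4WT and 2 higher in Atf4AKO mice. *Slc25a20*, the carrier that exchanges acylcarnitines across the inner membrane, rose from 3234 ± 310.2 (SD, n = 3) to 11100.2 ± 694 in Atf4WT (log2 fold change 1.78, adjusted p = 3.72e-05) and by 1.95 in Atf4AKO mice. *Crat*, the carnitine acetyltransferase, rose by 0.45 and 0.55. In Atf4WT mice *Slc22a4*, a plasma membrane carnitine transporter, fell from 1072 to 663 and *Tmlhe*, of carnitine synthesis, from 947 to 752. Neither passed in Atf4AKO mice, with log2 fold changes of −0.37 and −0.09 (adjusted p = 0.0951 and 0.487). *Slc22a5*, of the same list, did not pass in either genotype. Its log2 fold changes were 0.17 in Atf4WT (adjusted p = 0.369) and 0.26 in Atf4AKO mice (adjusted p = 0.182). The ratio of *Slc25a20* to *Cpt2* counts, which was not tested, ranged from 0.446 to 0.572 at RT and from 1.15 to 1.26 after cold exposure in Atf4WT libraries.

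Malonyl-CoA, the inhibitor of carnitine palmitoyltransferase 1, is made at the mitochondrion by *Acacb* and removed by *Mlycd*. The list around its control held 10 genes, including *Nudt7*, a hydrolase of CoA. Of these, 6 (60%) passed higher in each genotype, with *Nudt7* among them, and 1 (10%) lower in Atf4WT mice. *Acacb* rose from 7805 ± 763 (SD, n = 3) to 21141 ± 563 in Atf4WT (log2 fold change 1.44, adjusted p = 6.14e-05) and by 1.20 in Atf4AKO mice. *Nudt7* rose by 0.77 and 0.88, and *Prkab2*, a subunit of AMP-activated protein kinase, fell from 598 to 343 in Atf4WT mice (adjusted p = 0.0302). In Atf4AKO mice *Prkab2* did not pass, with a log2 fold change of −0.37 (adjusted p = 0.268). Other subunits of this kinase, *Prkaa2*, *Prkab1* and *Prkag1*, passed higher in both genotypes. Their log2 fold changes were 0.47, 0.71 and 0.35 in Atf4WT and 0.62, 0.73 and 0.34 in Atf4AKO mice. *Prkaa1* and *Prkag2* passed in neither. *Mlycd* had a log2 fold change of 0.70 in Atf4WT (adjusted p = 0.0106) and 0.75 in Atf4AKO mice (adjusted p = 0.00902), so that *Acacb* and *Mlycd* rose in the same groups. *Acaca*, of the same list, did not pass in either genotype. Its log2 fold changes were 0.12 in Atf4WT (adjusted p = 0.819) and −0.03 in Atf4AKO mice (adjusted p = 0.950).

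Of 19 measured genes of peroxisomal beta-oxidation, 5 (26.3%) passed higher and 3 (15.8%) lower in Atf4WT and 6 (31.6%) higher and 1 (5.26%) lower in Atf4AKO mice, with a median log2 fold change of 0.12 and 0.15. *Acot4*, a peroxisomal thioesterase, rose by 1.97 and 2.26 and *Abcd3*, a transporter of the peroxisomal membrane, by 1.04 and 1.17. *Abcd2*, another such transporter, fell from 18985 to 10995 in Atf4WT mice (adjusted p = 0.00974), and *Decr2*, the peroxisomal dienoyl-CoA reductase, from 726 to 512 (adjusted p = 0.0107). In Atf4AKO mice *Abcd2* also passed lower, with a log2 fold change of −0.59 (adjusted p = 0.0375). *Decr2* did not pass there, with −0.26 (adjusted p = 0.131). Of 14 transcriptional regulators of fatty acid oxidation, 7 (50%) passed higher and 3 (21.4%) lower in Atf4WT and 7 higher and 1 (7.14%) lower in Atf4AKO mice. The coactivators *Ppargc1a* and *Ppargc1b* rose by 2.01 and 1.62 in Atf4WT and by 2.57 and 2.15 in Atf4AKO mice. Among corepressors, *Ncor1* fell from 4384 to 3444 (adjusted p = 0.00332) and *Nrip1* from 3377 to 1876 (adjusted p = 0.0177) in Atf4WT mice. In Atf4AKO mice neither passed, with log2 fold changes of −0.20 and −0.22 (adjusted p = 0.0520 and 0.515). The difference of cold responses between the genotypes did not pass for *Ncor1* or *Nrip1* (adjusted p = 0.926 and 0.811).

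Of 6 genes of ketone body metabolism, 1 (16.7%) passed higher and 1 lower in Atf4WT and none in Atf4AKO mice. *Oxct1*, which starts ketone use, fell from 8612 to 6653 in Atf4WT mice (adjusted p = 0.0394). In Atf4WT mice *Bdh1* had 4.05 ± 0.476 counts (SD, n = 3) at RT and 62.6 ± 46.3 after cold exposure (adjusted p = 0.00791). These counts were low and the cold-exposed libraries spread widely. In Atf4AKO mice it had 7.30 ± 0.745 and 13.2 ± 6.33 and did not pass (adjusted p = 0.505). *Bdh1* was highest in the group with the highest lymphocyte scores, and the part of lymphocytes in its level was not tested. Of 20 measured other mitochondrial acyl-CoA enzymes, 2 (10%) passed higher and 1 (5%) lower in each genotype, both below the shares of all tested genes. *Acsf2*, a medium-chain acyl-CoA synthetase, rose by 0.65 and 0.72, and *Mcee*, the epimerase after propionyl-CoA carboxylase, rose by 0.45 and 0.48. *Echdc3* fell from 1540.1 to 1005 in Atf4WT mice (adjusted p = 0.00505). It also passed lower in Atf4AKO mice, with a log2 fold change of −0.52 (adjusted p = 0.0145).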

How the data were processed

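Polyadenylated RNA of iWAT was sequenced in 12 libraries, 3 in each of 4 groups. The authors used SOAPnuke for read filtering, STAR for mapping to mm10 and featureCounts for counting of reads with a unique position, each given to the gene it overlaps most. They deposited a normalized signal, in which each gene's reads are divided by a size factor from DESeq2 (versions and strand setting not given in the sources used here). Dividing by the smallest value of a library gave whole reads in 100% of the values (largest deviation 0.000313 reads, allowed 0.001), so that depth could be recovered, and no column was left out. Each listed gene has at least 1 read in every library.

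limma 3.58.1 in R 4.3.3 (lmFit, eBayes with a variance trend) was run on log2(normalized count + 1) for genes with a mean of at least 10, with 4 group means and no covariate. The study names DESeq2, which was run as an alternative because the values are normalized. The members and lists were chosen with earlier results of these data known. Values in every library are given for the gene of each step with the smallest p-value for cold exposure in Atf4WT mice, for genes that passed lower or between genotypes, and for *Cpt1a*, *Cpt1b*, *Acsl1*, *Acadvl*, *Acadl*, *Acadm*, *Hadha*, *Acaa2* and *Acot11*. From the neighbouring lists, the 2 genes with the smallest p-value in each direction are named. *Mlycd*, *Slc22a5*, *Acaca*, *Prkaa1*, *Prkaa2*, *Prkab1*, *Prkag1* and *Prkag2* were added after their values were seen. Replicates are biological replicates by the labels and differed by more than sampling noise. Transcript lengths and positions came from GENCODE M21 by RefSeq accession, and promoters from RefSeq. Exons of 7 members overlap those of another listed gene: *Acad11*, *Acadvl*, *Acsl3*, *Acsl5*, *Echs1*, *Etfdh* and *Pcca*. 1 item of the neighbouring lists is not reported here and stays out of their counts. Alternatives were pseudocounts of 0.5 and 5, no filter, a mean of 50, rescaling to the 75th percentile, only the groups compared, a replicate block, the lymphocyte score, edgeR 4.0.16, DESeq2 1.42.0, the threshold of the study and leaving out each library.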

Additional observations from a re-analysis of the deposited data

How the results depend on the processing

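Among the 35 genes, no fold change of a gene that passed changed its direction under any alternative. The count of genes higher with cold exposure in Atf4WT mice ranged from 11 to 17 when a library was left out, and in Atf4AKO mice from 11 to 20. Of genes passing in either direction there were 12 to 19 and 12 to 21, and of lower genes 1 to 2 and 1 to 2. edgeR gave 16 and 19 higher genes and DESeq2 17 and 20. Only the groups compared gave 15 and 14, and *Acsl1* and *Acsl4* in Atf4WT and *Acsl1*, *Cpt2*, *Acad11*, *Eci1* and *Acot13* in Atf4AKO mice did not pass. Without the 3 libraries rich in muscle markers, which were chosen after seeing the data, 12 genes passed in Atf4AKO mice, 11 of them higher. Lower genes in Atf4WT mice were 0 with the lymphocyte score and 1 with the threshold of the study, and in Atf4AKO mice 2 with 75th percentile scaling, the replicate block or DESeq2, where *Cpt1a* was added. With the lymphocyte score the median log2 fold change with cold exposure in Atf4WT mice was 0.71, that between genotypes after cold exposure −0.23 with 8 genes above 0, and the median of the difference of cold responses −0.23 with 7 above 0. The score did not overlap between the genotypes after cold exposure, nor between RT and cold-exposed Atf4WT libraries. In these fits it therefore cannot be told apart from genotype or cold exposure. When a library was left out, the genes above 0 were 24 to 34 after cold exposure, 13 to 31 at RT and 17 to 32 for the difference of cold responses. At RT they were 15 without the muscle-rich libraries. For that difference 1 gene passed the threshold of the study. Causes of these moves were not tested. Replicate numbers were not taken to pair the libraries, since not every same-number pair correlated above 0.1. Of 18 such pairs, between −0.19 and 0.39, 9 did, including all 6 of replicate 1, and not every library correlated best with its own number. The replicate block gave 19 higher genes in Atf4WT and 22 in Atf4AKO mice. The number of libraries may limit these calls. No group has 4 or more libraries, so single libraries were not tested as outliers.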
